A study of Drosophila melanogaster with 4 samples.

Results

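Turandot proteins and thioester-containing proteins (Tep) are secreted products of the fly's stress and immune responses. Their probe sets were taken from the platform annotation wherever it gave a single symbol made of Tot and 1 capital letter, or a symbol starting with Tep and a digit. This found 6 of 13966 probe sets, for 5 genes: TotB, TotE, Tep3, Tep4 and the pseudogene Tep5Psi, the last with 2 probe sets. These are 5 of the 10844 genes that single symbols name on the array. If symbols that continue after the digit are left out, 4 probe sets for 4 genes remain, all but Tep5Psi. The RefSeq gene table for Drosophila melanogaster (Release 6 plus ISO1 MT) holds 8 Turandot and 5 Tep genes, so that 2 and 3 of them were measured here. TotA, TotC, TotF, TotM, TotX, TotZ and Tep1 had no probe set under a single symbol. Tep2 was reached in another way, given below.

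The arrays compared whole adult females of a y, w strain, which carries yellow body and white eye mutations in both treatments. The flies ate food without yeast for the first 5 days after eclosion and then received 0.1 µl of fluid on the body surface. Controls received acetone alone, and treated flies received 187 mM juvenile hormone III (JH III), a lipid-like hormone made by the corpora allata, dissolved in acetone. They were frozen 12 hours later, and each of the 4 RNA samples, 2 per treatment, came from 30 females and was hybridised to 1 Affymetrix DrosGenome1 array. The labels ask whether the hormone lowers antimicrobial peptide transcripts, which share the fat body with Turandot and Tep genes.

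Turandot genes encode small peptides that the fat body releases into the blood under heat, infection, wounding and other stress. TotA, the best studied, is induced through the JAK-STAT pathway, with the kinase kinase kinase Mekk1 and the NF-kB factor Relish as further inputs. Tep proteins belong to the family of complement C3 and alpha-2-macroglobulin. In Anopheles mosquitoes TEP1 binds bacteria and malaria parasites and marks them for destruction, and in Drosophila fat body and haemocytes (blood cells) are known sources of Tep proteins. In a whole animal, fewer cells of a type and less RNA per cell cannot be told apart.

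Tep4 was the 1 member clearly detected in every sample, and it differed little between treatments. None of the 3 members that could be tested was called higher or lower, which does not show that they were unchanged. TotE varied more between arrays of a treatment than between treatments. TotB, Tep3 and a probe set of Tep5Psi stayed within the range of control probe sets. That range was set as the 95th percentile of 23 control probe sets for bacterial, yeast and mouse transcripts not spiked in, computed on each array and called the control level here. It was 139 and 295 in acetone replicates 1 and 2 and 369 and 240 in JH III replicates 1 and 2, in units of deposited signal, a linear intensity. Of the 24 member values (6 probe sets on 4 arrays), 7 exceeded it. Of the 6 probe sets 1 (Tep4) exceeded it on all arrays, as did 29.3% of all probe sets, and 3 did so on none, as did 25.8% of all probe sets.

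**Figure D1:**
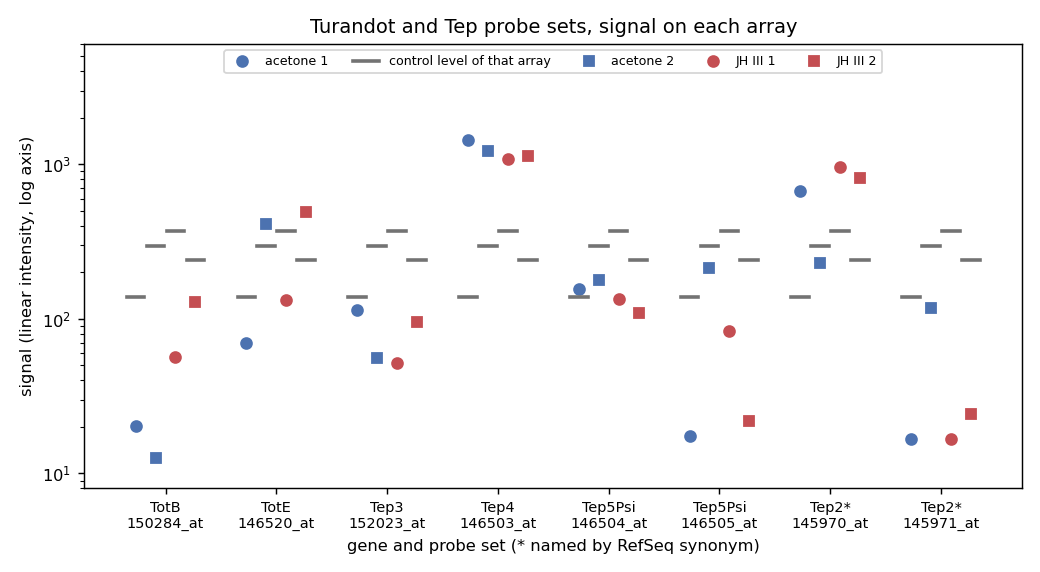
Signal (linear intensity on a log axis) of each Turandot and Tep probe set on each array. Blue is acetone, red JH III, circles replicate 1 and squares replicate 2, and each grey bar is the control level of that array. Tep4 lies above the bars on all 4 arrays, and TotB, Tep3, 1 Tep5Psi probe set and 1 Tep2 probe set lie below them on all 4.

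Differences between treatments were tested on log2(signal + 83) with limma, a linear model that shares its estimate of the spread across probe sets, after the lowest 25% of probe sets by mean signal were left out. Tep4, TotE and 1 Tep5Psi probe set passed this filter, with mean signals over the 4 arrays of 1218, 277 and 145. The lowest mean tested was 125, and the members below it, with no test of their own, had means of 83.9 (the dimmer Tep5Psi probe set), 79.0 (Tep3) and 54.7 (TotB). Of the 3 tested members 0 passed a limma adjusted p of 0.05, against 0.162% of the 10475 probe sets tested, 17 in number. Before adjustment, 0 members had a limma p under 0.05 as well, against 7.29% of all. The methods' t-test, the per-gene test that the labels name, gave 0 at either threshold among the 3. Groups without overlap were found in 3 of the 6 members, against 37.1% of all probe sets.

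The JH III and acetone samples also differed in RNA quality measures. For the control gene GAPDH, 3' signal over 5' signal was 15.5 and 10.2 in acetone replicates 1 and 2 and 2.32 and 5.75 in JH III replicates 1 and 2. For the control gene eIF-4a this ratio was 75.0 and 46.8 in acetone and 18.3 and 18.9 with JH III, in the same order. JH III replicate 1 correlated least with the other arrays, with Pearson r across probe sets of 0.73 to 0.74 against 0.84 to 0.86 among the remaining 3. Acetone replicate 1 was the 1 array of another chip lot. The median difference over all tested probe sets was 0.10 on the log2 scale. Quantile normalization brought it to 0.007, and centring each array on its median turned it to -0.14. After that centring TotE differed by 0.11, TotB by 0.55, Tep3 by -0.33 and the Tep5Psi probe sets by -0.53 and -0.62. In the female samples, 0 of 10 male markers exceeded the control level on all arrays and 6 exceeded it on none, against 29.3% and 25.8% of all probe sets. Those above it on some arrays included Mst84Da (1 acetone and 2 JH III samples) and Mst87F (2 acetone samples and 1 JH III sample).

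Among the Turandot genes, TotE had a signal of 70.2 in acetone replicate 1 and 413 in replicate 2. With JH III it was 132 in replicate 1 and 491 in replicate 2. The groups overlapped, and each had 1 array above its control level and 1 below it. In each treatment the array below the control level was replicate 1. The log2 difference was 0.35 ± 0.76 (SE, n = 2 each, limma adjusted p = 0.939), with a 95% interval of -1.16 to 1.86 that holds a fall to 0.448 times and a rise to 3.62 times the acetone level. TotE differed by 1.06 without JH III replicate 1, by -0.36 without JH III replicate 2, by -0.50 without acetone replicate 1 and by 1.20 without acetone replicate 2. No library can therefore be left out without moving this value by over 1.5 times, and its direction depended on the arrays used.

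TotE lies next to TotF in the RefSeq table, and both carry the older name CG13963, so that a probe set designed for that name may report either gene. TotE also lies within the span of sick, a gene with 6 probe sets of its own. The table gives no strand, and signals of overlapping genes cannot be told apart on that basis. No sick probe set ordered the 4 arrays as TotE did. With TotE below the control level on 1 array of each treatment, this order cannot tell the signals apart. The brightest sick probe set had 598 and 625 in acetone and 949 and 821 with JH III, without overlap (log2 difference 0.48 ± 0.46 SE, limma adjusted p = 0.847). The next had 276 and 540 in acetone and 650 and 1009 with JH III (0.92 ± 0.51 SE, limma adjusted p = 0.757). Neither passed, and the remaining 4 sick probe sets each exceeded the control level on at most 2 arrays.

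TotB stands among other Turandot genes, with TotC on one side and TotZ on the other. Its signal was 20.3 and 12.6 in acetone and 56.5 and 129 with JH III, in order of replicate. Both JH III values were above both acetone values, as in 23.7% of all probe sets, and all 4 lay below the control level of their array, so that no fold can be given. The log2 difference was 0.79, from log2 values of 6.69 and 6.58 in acetone and 7.12 and 7.73 with JH III. In a fit with no filter it had an unadjusted limma p of 0.0298 and a limma adjusted p of 0.745, with a 95% interval of 0.09 to 1.50. That difference was 2.35 with a pseudocount of 1 and 0.35 with one of 256, and it was 0.49 without JH III replicate 2 and 1.10 without JH III replicate 1. TotB was not detected above the control level in either treatment.

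Among the Tep genes, Tep4 had a signal of 1439 in acetone replicate 1 and 1213 in replicate 2. With JH III it was 1088 in replicate 1 and 1133 in replicate 2. Both treated samples lay below both controls, as in 15.3% of tested probe sets, and the highest array was 1.32 times the lowest. The acetone mean was 1326 ± 160 and the JH III mean 1110 ± 32.0 (SD, n = 2 each). The log2 difference was -0.23 ± 0.40 (SE, limma adjusted p = 0.918), and its 95% interval of -1.03 to 0.56 corresponds to 0.490 to 1.47 times the acetone level. A change within that range could be missed here, and so could some larger ones, because calls used the adjusted p. The difference was -0.18 after quantile normalization and -0.47 after median centring. It was -0.12 without acetone replicate 1, the value within a single chip lot. Without JH III replicate 1 it was -0.21, without JH III replicate 2 it was -0.26, and without acetone replicate 2 it was -0.35.

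Haemocytes are a known source of Tep4, and their tested markers showed no common direction. Of the 14 measured, 12 were tested and 0 passed, against 0.162% of all tested. Positive differences numbered 6, and the median was -0.04 against 0.10 over all probe sets. Of the 14, 5 exceeded the control level on all arrays, against 29.3% of all probe sets. These differed by -0.87 (Col4a1), -0.81 (atilla), -0.29 (crq), -0.15 (Pxn) and 0.36 (PPO1). Every other positive difference was of a marker below the control level on some array. Before adjustment 2 had a limma p under 0.05, against 7.29% of all tested, and 3 were higher and 3 lower without overlap, against 22.2% and 15.3%. The summed signal of the 14 was 13193 and 11824 in acetone and 9204 and 9737 with JH III. That order rested on atilla, a marker of lamellocytes (-0.81, limma adjusted p = 0.636), without which the sums were 6357 and 6926 in acetone and 6620 and 5596 with JH III and overlapped. This gene was left out after its values were seen. Col4a1, a collagen that haemocytes and fat body both secrete, had 2037 and 2801 in acetone and 1185 and 1351 with JH III (-0.87 ± 0.37 SE, limma adjusted p = 0.618). Positive differences were seen for the scavenger receptor Sr-CI (1.49, limma adjusted p = 0.727) and the GATA factor srp (1.44, limma adjusted p = 0.757). Sr-CI had 96.3 and 49.5 in acetone and 644 and 176 with JH III. It exceeded the control level in JH III replicate 1 alone, and without that array its difference was 0.75. The values of srp were 164 and 12.6 in acetone and 521 and 207 with JH III, with 1 array of each treatment above the control level. Hml, the hemolectin that defines most plasmatocytes, was at 338 and 436 in acetone and at 124 and 89.9 with JH III, below the control level in both treated samples (-1.31 ± 0.75 SE, limma adjusted p = 0.757). The defining markers NimC1 and eater, phagocytosis receptors, were below the control level on all 4 arrays. Markers of midgut and muscle had lower medians, -0.64 in each, with 0 of 8 and 0 of 6 differences positive and 0 called. All 8 and all 6 exceeded the control level on all arrays, against 29.3% of all probe sets. Whether their lower medians go with bright signal was not tested. Follicle cell and egg markers had a median of 0.31, with 7 of 9 differences positive and 0 called. The share called over all tested probe sets was 0.162%. Before adjustment 2 in each of these lists had a limma p under 0.05, against 7.29% of all tested. The part of haemocyte number or RNA quality in the Tep4 values was not tested.

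Fat body markers showed no such order. The summed signal of the 13 measured was 22671 and 20227 in acetone and 16807 and 20847 with JH III. Of the 12 tested 0 passed, and 2 had an unadjusted limma p under 0.05, against 0.162% and 7.29% of all. These were the lipophorin receptor LpR2, at 82.6 and 105 in acetone and 586 and 582 with JH III (1.92 ± 0.70 SE, limma adjusted p = 0.476), and the lipid droplet protein Lsd-1 (-0.75 ± 0.35 SE, limma adjusted p = 0.651). The median difference of the list was -0.11.

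Tep5Psi lies near Tep4 with a single other pseudogene between them. Its brighter probe set had 156 and 179 in acetone and 134 and 110 with JH III. It was lower in both treated samples, and 1 of the 4 values (acetone replicate 1) exceeded the control level of its array. The log2 difference was -0.29 ± 0.83 (SE, limma adjusted p = 0.951), with a 95% interval of -1.95 to 1.37, and it was -0.38 without JH III replicate 1. The dimmer one had 17.4 and 213 in acetone and 83.3 and 21.7 with JH III, all below the control level. The groups overlapped there, and the difference was -0.39 with the lowest and the highest value both in acetone. It was -0.72 without JH III replicate 1, -0.05 without JH III replicate 2, -1.17 without acetone replicate 1 and 0.39 without acetone replicate 2. The 2 probe sets of this pseudogene did not order the arrays alike.

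Tep3 had 114 and 55.5 in acetone and 51.7 and 94.7 with JH III. All 4 values lay below the control level and the groups overlapped, with a log2 difference of -0.09 and, in the fit with no filter, a 95% interval of -1.11 to 0.92. It was 0.11 without JH III replicate 1 and 0.16 without acetone replicate 1, against -0.29 and -0.35 without the other array of each treatment.

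Tep2 stands next to Tep3 and is induced by infection in flies. The platform annotation used here does not list its probe sets, but the RefSeq table gives 2 probe set names among the synonyms of Tep2. Of such probe set synonyms, 111 were also in the platform annotation, and 111 of them named the same gene there. These probe sets lie outside the rule for members and were picked with their values already known. The brighter had a signal of 671 in acetone replicate 1 and 228 in replicate 2, and of 961 and 820 in JH III replicates 1 and 2. Both treated samples lay above both controls, as in 22.2% of tested probe sets, and acetone replicate 2 was below its control level. The acetone mean was 450 ± 313 and the JH III mean 890 ± 99.2 (SD, n = 2 each). The log2 difference of 1.00 ± 0.51 (SE) did not pass, with an unadjusted limma p of 0.0527, a limma adjusted p of 0.695 and a 95% interval of -0.01 to 2.02. It was 0.36 without acetone replicate 2, 1.64 without acetone replicate 1 and 0.90 without JH III replicate 1. The dimmer Tep2 probe set gave 16.6 and 117 in acetone and 16.7 and 24.1 with JH III, all below the control level, with a difference of -0.45 that became 0.05 without acetone replicate 2.

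**Figure D2:**
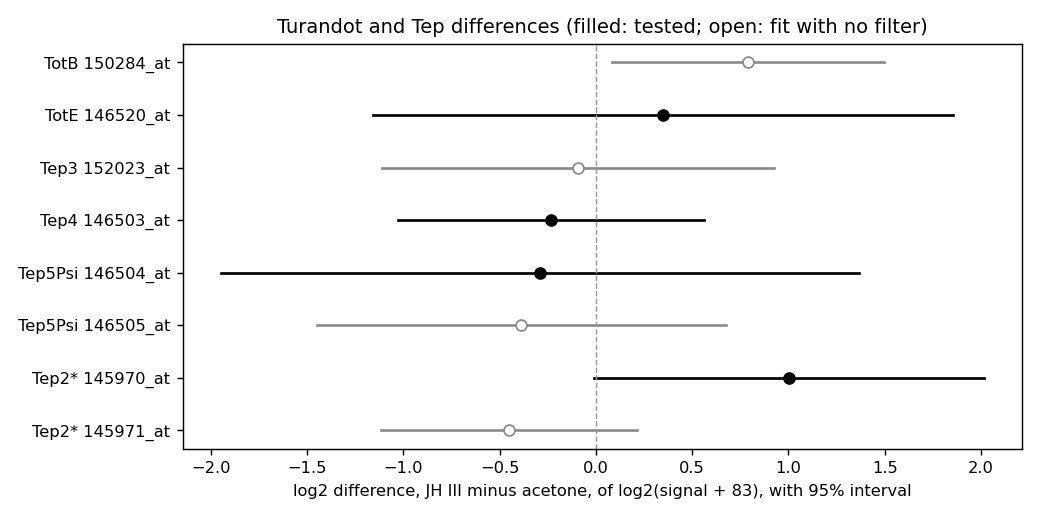
Log2 difference (JH III minus acetone) of log2(signal + 83) for each Turandot and Tep probe set, with its 95% interval from limma. Filled points are probe sets above the filter and open points are values from the fit with no filter, and Tep2 was named by RefSeq synonym. The intervals of the 4 tested probe sets include 0, and among open points that of TotB does not (0.09 to 1.50, limma adjusted p = 0.745).

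The genes beside Tep3, Tep4 and Tep5Psi gave no call either. CG13078, the nearest gene past Tep5Psi, had 1247 and 1606 in acetone and 1734 and 1842 with JH III. Its groups did not overlap, and its difference of 0.32 ± 0.38 (SE, limma adjusted p = 0.877) was opposite in sign to those of Tep4 and Tep5Psi. The next gene, CG13077, had 477 and 203 in acetone and 612 and 606 with JH III (0.79 ± 0.57 SE, limma adjusted p = 0.777). On the other side of Tep4, CG10337 had 117 and 207 in acetone and 136 and 517 with JH III (0.59, limma adjusted p = 0.889). Then came ref(2)P, the fly's p62 autophagy receptor, at 2006 and 659 in acetone and 828 and 1541 with JH III (-0.03, limma adjusted p = 0.99). Past Tep3, the transporter gene Ntl had 334 and 267 in acetone and 601 and 374 with JH III (0.55, limma adjusted p = 0.864).

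The probe sets nearest to TotE and Tep4 in their pattern were found by the root mean square difference of log2 values over the 4 arrays, each centred on its own mean. For TotE these were CG15912, CG7557 and VGlut, at 0.059, 0.071 and 0.078. For Tep4 they were mino, CCT1 and Kaz-m1, at 0.019, 0.035 and 0.036. With 4 arrays and 10475 probe sets such closeness is a description only.

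Genes of the JAK-STAT pathway, through which Turandot genes are induced, were not called. Of 13 listed, 10 were measured and 7 tested, with 0 past the threshold in either direction and 0 at an unadjusted limma p under 0.05. Of the 7, 5 had positive differences and 3 were higher without overlap, against 22.2% of all tested, and 0 were lower without overlap. The median difference was 0.46 against 0.10 over all probe sets. The ligand upd1 had 23.1 and 41.9 in acetone and 467 and 59.2 with JH III, and exceeded the control level in JH III replicate 1 alone (1.28 ± 0.91 SE, limma adjusted p = 0.776). Without that array its difference was 0.31. The receptor dome had 415 and 52.9 in acetone and 86.9 and 314 with JH III, with groups that overlapped (-0.0026, limma adjusted p = 1.00). The transcription factor Stat92E was detected on all arrays, at 1240 and 745 in acetone and 1209 and 750 with JH III (-0.01 ± 0.43 SE, limma adjusted p = 0.998). BRWD3, a bromodomain protein that promotes the pathway, had 632 and 574 in acetone and 1280 and 916 with JH III (0.77 ± 0.45 SE, limma adjusted p = 0.763). The inhibitor Su(var)2-10, the fly PIAS protein, had 238 and 280 in acetone and 596 and 347 with JH III (0.66 ± 0.63 SE, limma adjusted p = 0.846). The values for dome and Stat92E, and those of Rel, Hml, NimC1 and eater, were picked with their values in view.

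Stress kinase and Imd-Relish genes were not called either. Of 16 listed, 14 were measured and 13 tested. Of the 13, 0 passed in either direction and 0 had an unadjusted limma p under 0.05, against 0.162% and 7.29% of all tested. Of these 5 had positive differences, 2 were higher in both treated samples than in both controls (22.2% of all tested) and 3 lower (15.3%). The median difference was -0.35, against 0.10 over all tested. Mekk1 had 492 and 666 in acetone and 221 and 452 with JH III (-0.70 ± 0.57 SE, limma adjusted p = 0.816). The p38 kinase kinase lic had 770 and 623 in acetone and 138 and 525 with JH III (-1.08 ± 0.57 SE, limma adjusted p = 0.72). In both genes the lowest array was JH III replicate 1, and without it the differences were -0.29 and -0.35. The Fos protein kay had 279 and 96.4 in acetone and 530 and 401 with JH III (1.10 ± 0.68 SE, limma adjusted p = 0.767). Rel, which encodes Relish, had 628 and 333 in acetone and 310 and 492 with JH III (-0.19 ± 0.58 SE, limma adjusted p = 0.953).

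**Figure D3:**
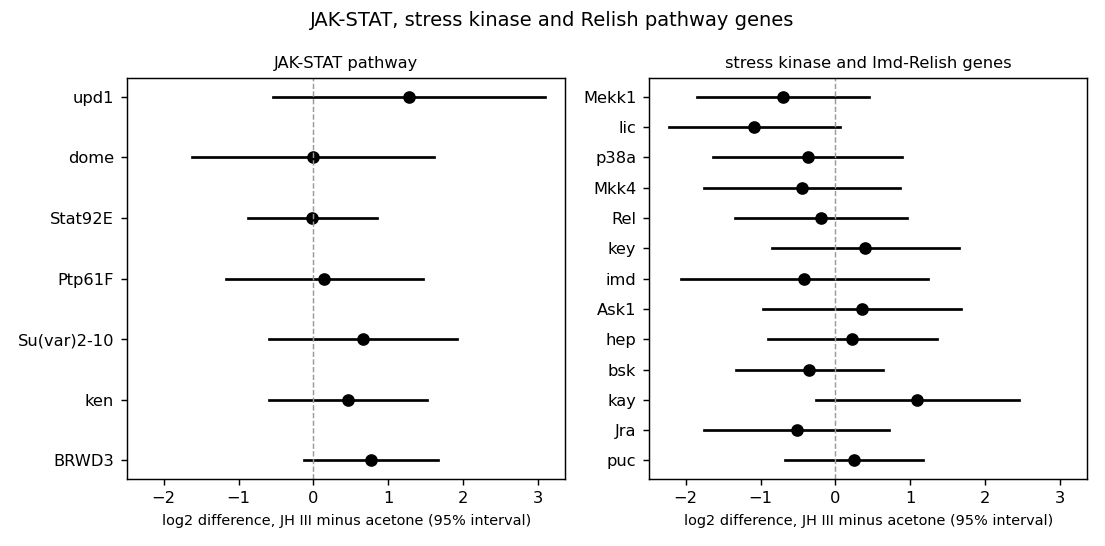
Log2 difference (JH III minus acetone) with its 95% interval from limma for the 7 tested JAK-STAT genes (left) and the 13 tested stress kinase and Imd-Relish genes (right), 1 probe set per gene. All 20 intervals include 0.

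Among 5 other secreted immune or stress products and relatives, 4 were measured and 3 tested. Of these 1 was called higher and 0 lower, against 0.162% of all tested in either direction. Before adjustment 2 had a limma p under 0.05, against 7.29%. Without overlap 1 was higher and 2 were lower, against 22.2% and 15.3%. The 1 called higher was Diedel, an immune-modulating secreted protein. It had 59.5 and 180 in acetone, both below the control level, and 7963 and 3889 with JH III (log2 difference 4.87, limma adjusted p = 8.56e-13). That difference did not pass without a trend in limma (adjusted p = 0.26) or by the methods' t-test (adjusted p = 0.802). The virus-induced vir-1, whose induction needs JAK-STAT, had 11339 and 11550 in acetone and 5299 and 7969 with JH III (-0.81 ± 0.36 SE, limma adjusted p = 0.636). Vago, a secreted antiviral protein, had 943 and 737 in acetone and 587 and 466 with JH III (-0.60 ± 0.48 SE, limma adjusted p = 0.814). Of 13 stress genes listed, 6 were measured and 5 tested. Of the 5, 0 were called and 3 had an unadjusted limma p under 0.05, against 0.162% and 7.29% of all tested. These 3 were Hsp26 (-1.26), the glutathione transferase GstD1 (-0.97) and Hsp27 (0.81). Without overlap 1 of the 5 was higher and 1 lower, against 22.2% and 15.3%. Hsp26 differed by 0.04 without JH III replicate 1, and by -2.57 without JH III replicate 2 (limma adjusted p = 0.0463). Hsp27 differed by 0.20 without acetone replicate 1 and by 1.43 without acetone replicate 2. Whether the Turandot and Tep differences differ from that of Diedel was not tested.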

How the data were processed

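Transcripts were measured in 4 samples, 2 per treatment, grouped and numbered as their titles say. Each array has 1 deposited intensity, on a linear scale, for every probe set, and the authors' scaling left 2% trimmed means of 500.1 on each. No source used here names the summarising software. Array description files, deposited as other text, gave chip lot and wash protocol.

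Of 14010 rows, 44 were controls. Values were tested as log2(signal + 83), 83 being the 25th percentile, with limma 3.58.1 in R 4.3.3 (eBayes with trend, two-sided, Benjamini-Hochberg over the 10475 probe sets left after the lowest 25% by mean signal were dropped). Alternatives were pseudocounts of 1 and 256, quantile normalization, median centring, other filters, eBayes without trend, the methods' t-test, replicate blocks and each array left out. Python 3.11.15 read and plotted. The fit was tested on simulated arrays, with normal noise of the spread that limma itself estimated. That test cannot show how well limma suits the real arrays. Replicates are separate pools, and their number limits precision. Lists used the brightest probe set per gene.

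The members and lists were chosen with earlier results of these data known. Named genes were all members, at most 4 genes of smallest p per list, and the 3 probe sets nearest in pattern to TotE and Tep4. Tep2, the genes beside members, dome, Stat92E, Rel, Hml, NimC1 and eater were added outside this rule. No coordinates are given, because no build is named for the arrays, and sequences were not used here.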

Additional observations from a re-analysis of the deposited data

How the results depend on the processing

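Under all 14 alternatives, Turandot and Tep probe sets called stayed at 0. Tep4, TotB, the brighter Tep5Psi and the brighter Tep2 probe set kept their sign in 14 of 14. Tep3 did in 12, and the dimmer Tep5Psi and Tep2 probe sets in 13 each. TotE did in 12 and ranged from -0.50 to 1.20 with an array left out. After quantile normalization vir-1 was -0.43, atilla -0.47, Lsd-1 -0.43 and GstD1 -0.56, against -0.81, -0.81, -0.75 and -0.97. Hsp27 was 0.98 there, against 0.81. Stat92E was 0.022 after quantile normalization and ranged from -0.35 to 0.33 with an array left out, dome was 0.15 with a pseudocount of 1 and ranged from -0.94 to 0.93, Rel ranged from -0.58 to 0.19, and Hsp26 from -2.57 to 0.041. The 17 probe sets called by limma became 10 with the median pseudocount, 2 each after quantile normalization, median centring, no filter or a 50% filter, and 0 without a trend (697 at an unadjusted p under 0.05) or by the methods' t-test (607). With the replicate block they became 2. Same-numbered arrays' deviations correlated at -0.11, and this value alone cannot settle whether the numbers pair the samples. A crossed replicate block, chosen after seeing the data, called 109, with 4 list genes and 0 members. With an array left out 3 to 36 were called: 3 without JH III replicate 1 or acetone replicate 1, 18 without JH III replicate 2 and 36 without acetone replicate 2. The 1 list gene called (Diedel) became 0 without a trend and by the t-test (5 and 4 at an unadjusted p under 0.05) and 1 to 3 list genes with an array left out. Against the median of control probe sets, 18 of 24 member values were above background instead of 7. The causes were not tested. Signal near the control level limits all members but Tep4.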
